A study of Danio rerio with 12 samples.

Results

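The genes described here are 67 named genes of zebrafish (Danio rerio) whose level was modestly higher in one group of larval pools, those that carry a mutated ifih1 transgene and were given poly I:C, than in every other pool of the experiment. They were chosen from the measured values, out of 32349 genes with counts. A member had an Ensembl zebrafish gene identifier and a gene name without a colon. Its lowest level in the 3 stimulated transgenic libraries lay above its highest level in the other 9. Its stimulated transgenic mean was at least 1 CPM (the count divided by the library total, times 1000000) and 1.5 to 4 times the mean of the other 9. Names beginning with mhc, psm, tap, trim, ftr, btr, ifit, stat or irf were left out, which removed 22 of 89 genes. The direction, the size range and the lack of overlap with the other groups were therefore set by the choice and are given as a description, with no test. Of the members, 62 were listed as protein coding and 13 carried a clone name in the deposited tables.

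The gene ifih1 encodes MDA5, a cytoplasmic sensor that binds long double-stranded RNA and signals through the adaptor Mavs to switch on type I interferon genes. Poly I:C is a synthetic double-stranded RNA used as a stand-in for viral RNA. Secreted interferon acts through receptor-bound kinases and Stat proteins on interferon-stimulated genes, many of which are nearly silent in unstimulated tissue. Other genes of such a response are already expressed for other duties, among them the RNA editor adar, peptide-trimming enzymes and lysosomal proteases. In humans, variants of IFIH1 and of ADAR are both known causes of Aicardi-Goutières syndrome, an inflammatory disease with a lasting interferon response.

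RNA was sequenced from 12 pools of 25 whole larvae at 3 days post fertilization, in 4 groups of 3 libraries. The groups were larvae carrying Tg(ifih1_mut) and stimulated with poly I:C (libraries A72, A73 and A74, here stimulated ifih1mut), control larvae stimulated with poly I:C (A78, A79 and A80), unstimulated Tg(ifih1_mut) larvae (A75, A76 and A77, here ifih1mut), and unstimulated control larvae (A81, A82 and A83). The sources used here do not give the promoter or the mutation of the transgene, the background of the controls, or how, how long and at what dose poly I:C was applied. Separate clutches are not named for the pools, so any p-value reflects only how much these pools vary.

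Library totals ran from 31876869 to 100839015 counts. The pools held transcripts expected of whole larvae, with skeletal muscle, lens, liver, neuron, epidermis and photoreceptor markers in every library. Not every marker was abundant: mylpfa, of skeletal muscle, had only 0.0544 to 0.424 CPM over the 12 libraries. The ifih1 transcript itself had 18.3, 25.8 and 31.6 CPM in stimulated ifih1mut pools, 2.26, 1.94 and 2.02 CPM in stimulated controls, 11.2, 13.4 and 16.9 CPM in unstimulated ifih1mut pools and 2.38, 2.68 and 1.98 CPM in controls, as the labels say of the transgene. Libraries at the same position in their group (by the order of the library numbers) deviated together, so 3 library sets are named below. A74, the third stimulated ifih1mut library, stood apart from A72 and A73 in interferon-stimulated genes. The ubiquitin-like modifier gene isg15 had 162, 124 and 263 CPM in A72, A73 and A74, and stat1b, a signal transducer of the interferon pathway, had 174, 98.1 and 370.1 CPM. The median ratio and the ratios of several members are therefore also given without A74 below, and the other ratios include it.

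Across the members, the median level was 6.34, 6.80 and 9.13 CPM in A72, A73 and A74. It was 3.88, 3.60 and 4.04 CPM in stimulated controls, 3.97, 4.26 and 3.63 CPM in unstimulated ifih1mut pools, and 3.94, 4.33 and 3.36 CPM in controls. The 9 pools outside stimulated ifih1mut thus held nearly the same median level, whether or not they had received poly I:C or carried the transgene. The choice favoured such evenness, since the highest of these 9 had to lie under all 3 stimulated ifih1mut values. The ratio of the stimulated ifih1mut mean to the mean of the other 9 had a median of 2.09, with a range of 1.51 to 3.80. It reached 2 in 36 members, 2.5 in 23 and 3 in 13. Without A74 the median ratio was 1.86, with a range of 1.36 to 3.31. In pooled tissue, more cells of a type and more RNA per cell cannot be told apart. Of 16279 eligible genes (those with such an identifier and name) with a mean of at least 1 CPM over the 12 libraries, 203 (1.25%) had every stimulated ifih1mut library above the other 9, and 28 (0.172%) had every one below.

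**Figure D1:**
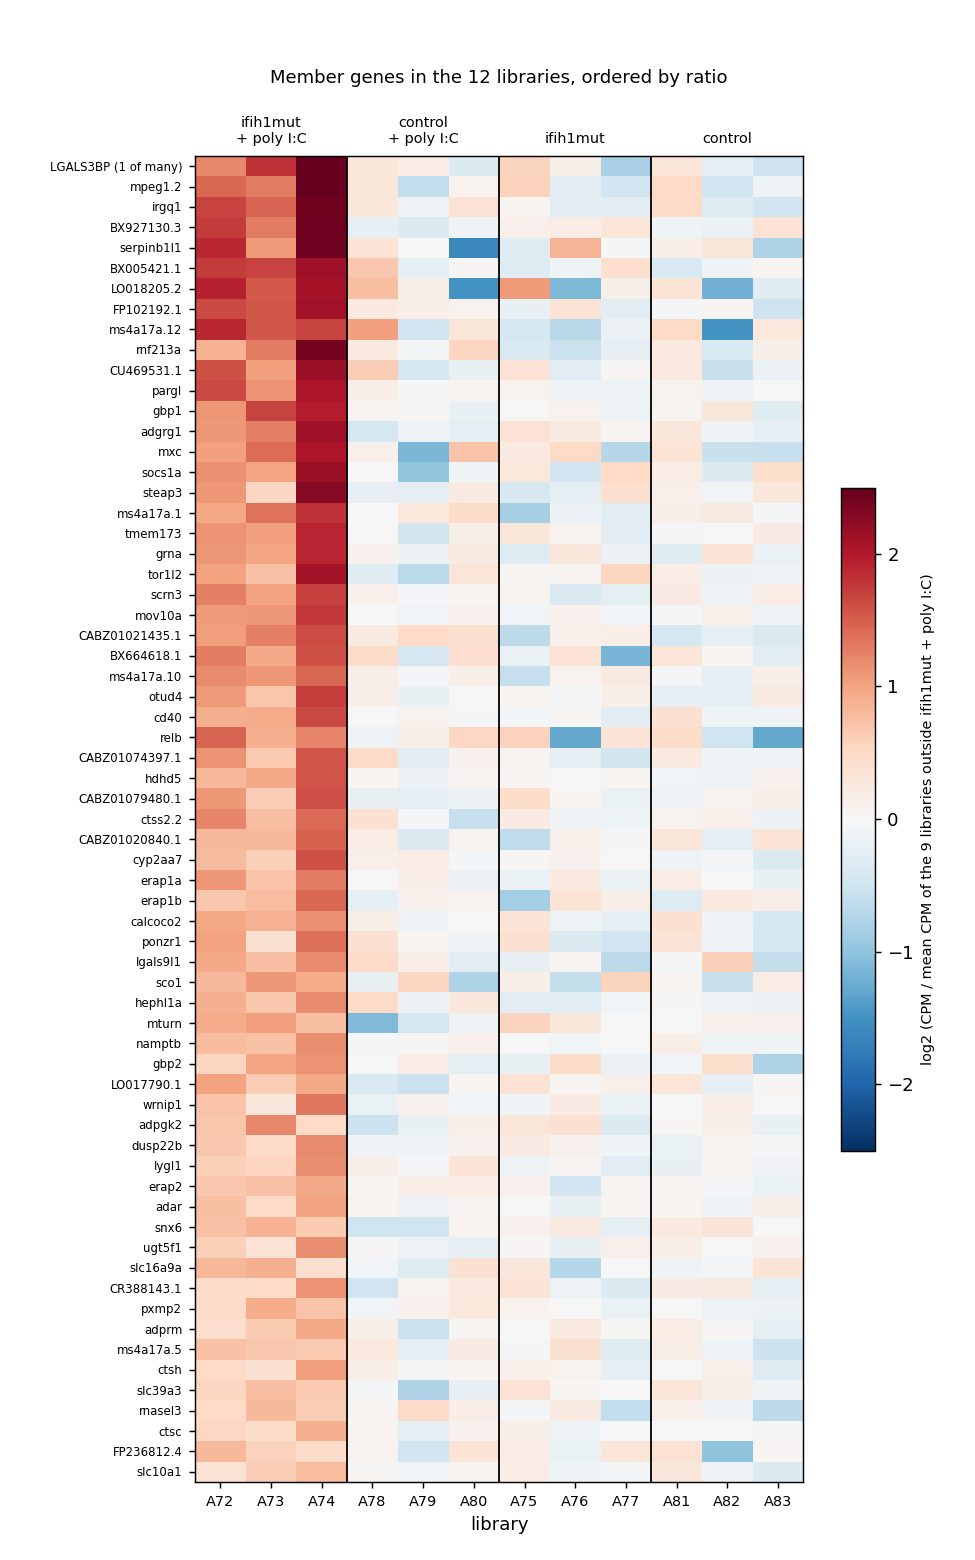
Each row is 1 of 65 member genes (2 are not shown) and each column a library, and the colour gives log2 of the library's CPM over the gene's mean CPM in the 9 libraries outside stimulated ifih1mut (red higher, blue lower). The 3 stimulated ifih1mut columns are red throughout because the members were chosen that way, and A74 is the deepest of them for 53 of 67 members. The other 9 libraries have nearly the same median member level, an evenness that the choice favoured, though groups among them separate for a few members such as mturn.

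Members differed from the strongly raised genes of the same pools in where they started. Under the same conditions, 82 named genes were over 4 times higher in stimulated ifih1mut pools, the names left out above included. Those 82 had a median of 8.70 CPM in stimulated ifih1mut pools and 0.364 CPM in the other 9 libraries. The 67 members had a median of 7.68 CPM in stimulated ifih1mut pools and 3.78 CPM in the other 9. The medians in stimulated ifih1mut pools lay close together, and the gap between the gene sets was in the level of the other libraries. Since the ratio divides by that level, this difference follows in part from the limits of 1.5 and 4 and is a description.

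**Figure D2:**
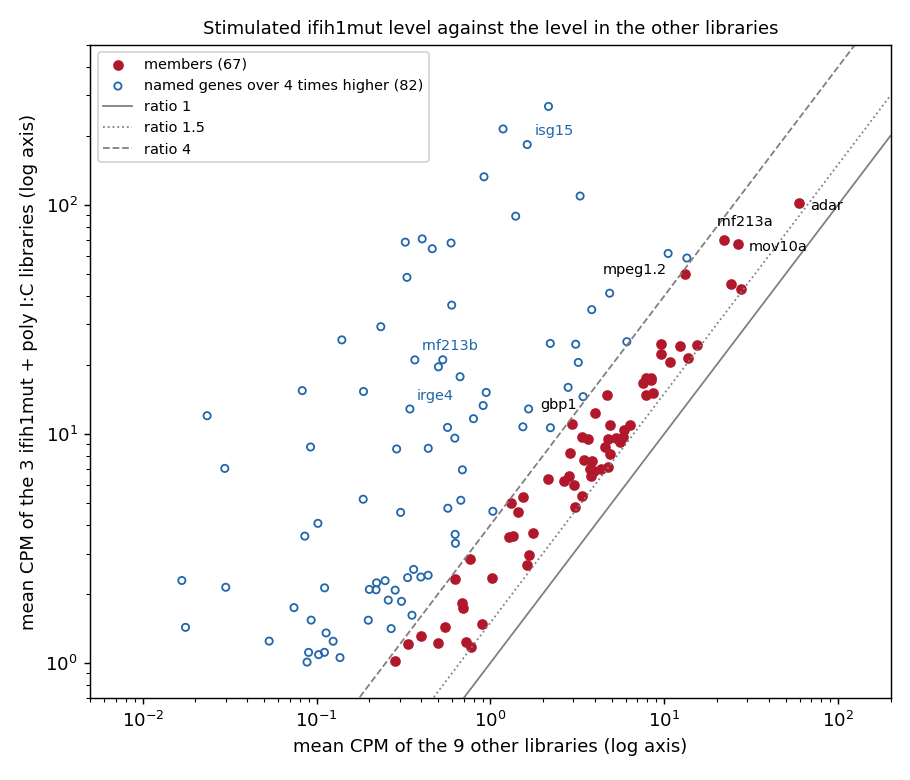
Each point is a gene, with its mean CPM in the 9 other libraries on the horizontal log axis and its mean CPM in the 3 stimulated ifih1mut libraries on the vertical log axis. The 67 members (filled) lie in the band between the ratio lines of 1.5 and 4 by choice, and the 82 genes over 4 times higher (open) reach similar stimulated levels from lower levels elsewhere.

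The members are taken below by role, in groups assigned after their values were seen. Genes that edit, unwind or cut RNA, or that act in nucleic acid defence, included the members with the most reads. The gene adar encodes the enzyme that converts adenosine to inosine in double-stranded RNA. adar had 100.2, 84.2 and 120.0 CPM in stimulated ifih1mut pools, 62.3, 54.9 and 62.6 CPM in stimulated controls, 60.0, 52.5 and 61.6 CPM in unstimulated ifih1mut pools and 61.9, 55.4 and 65.9 CPM in unstimulated controls. All 3 stimulated ifih1mut pools lay above the narrow band of the other 9, with the highest in A74, and the ratio of means was 1.70 (1.55 without A74). The related genes adarb1a, adarb1b and adarb2 had ratios of 0.987, 0.937 and 0.90.

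The RNA helicase gene mov10a, whose mammalian counterpart restrains retroelements and some viruses, had a wider gap. mov10a had 55.7, 56.0 and 90.5 CPM in stimulated ifih1mut pools, 26.4, 25.4 and 28.5 CPM in stimulated controls, 25.3, 28.6 and 25.1 CPM in unstimulated ifih1mut pools and 25.9, 29.0 and 24.1 CPM in unstimulated controls. A72 and A73 were nearly equal, A74 was higher, and the ratio was 2.55 (2.11 without A74). rnf213a had 40.0, 53.5 and 116 CPM in stimulated ifih1mut pools, 26.1, 21.7 and 32.2 CPM in stimulated controls, 16.9, 15.1 and 19.1 CPM in unstimulated ifih1mut pools and 26.1, 17.003 and 24.3 CPM in unstimulated controls. This gene, rnf213a, encodes a giant ubiquitin ligase, and its stimulated ifih1mut values spread from close to the highest other pool to several times that level. Its ratio was 3.16, and 2.12 without A74, the largest drop in this group of 7 members when that library was left out.

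tmem173 had 2.91, 2.72 and 5.06 CPM in stimulated ifih1mut pools, 1.33, 0.968 and 1.48 CPM in stimulated controls, 1.65, 1.41 and 1.11 CPM in unstimulated ifih1mut pools and 1.29, 1.33 and 1.54 CPM in unstimulated controls. The gene tmem173, whose current name is STING1, encodes the adaptor that answers cyclic dinucleotides made by the DNA sensor cGAS. Its ratio was 2.65 (2.095 without A74), while the adaptor of Ifih1 itself, mavs, had a ratio of 1.03 with overlapping groups. The cGAS gene, listed as mb21d1, was among the strongly raised genes at a ratio of 9.48. otud4 had 19.8, 15.3 and 31.7 CPM in stimulated ifih1mut pools, against 8.15 to 11.14 CPM in the other 9 libraries. This gene encodes a deubiquitinase of the OTU family. LO017790.1, named YTHDC2 in the reference names, which in mammals is an RNA helicase that binds methylated adenosine, had 10.5, 8.17 and 10.04 CPM in stimulated ifih1mut pools and 3.60 to 6.70 CPM in the other 9. The secreted ribonuclease gene rnasel3 had 19.2, 23.9 and 20.9 CPM in stimulated ifih1mut pools, with A79, a stimulated control, close below at 18.997 CPM.

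**Figure D3:**
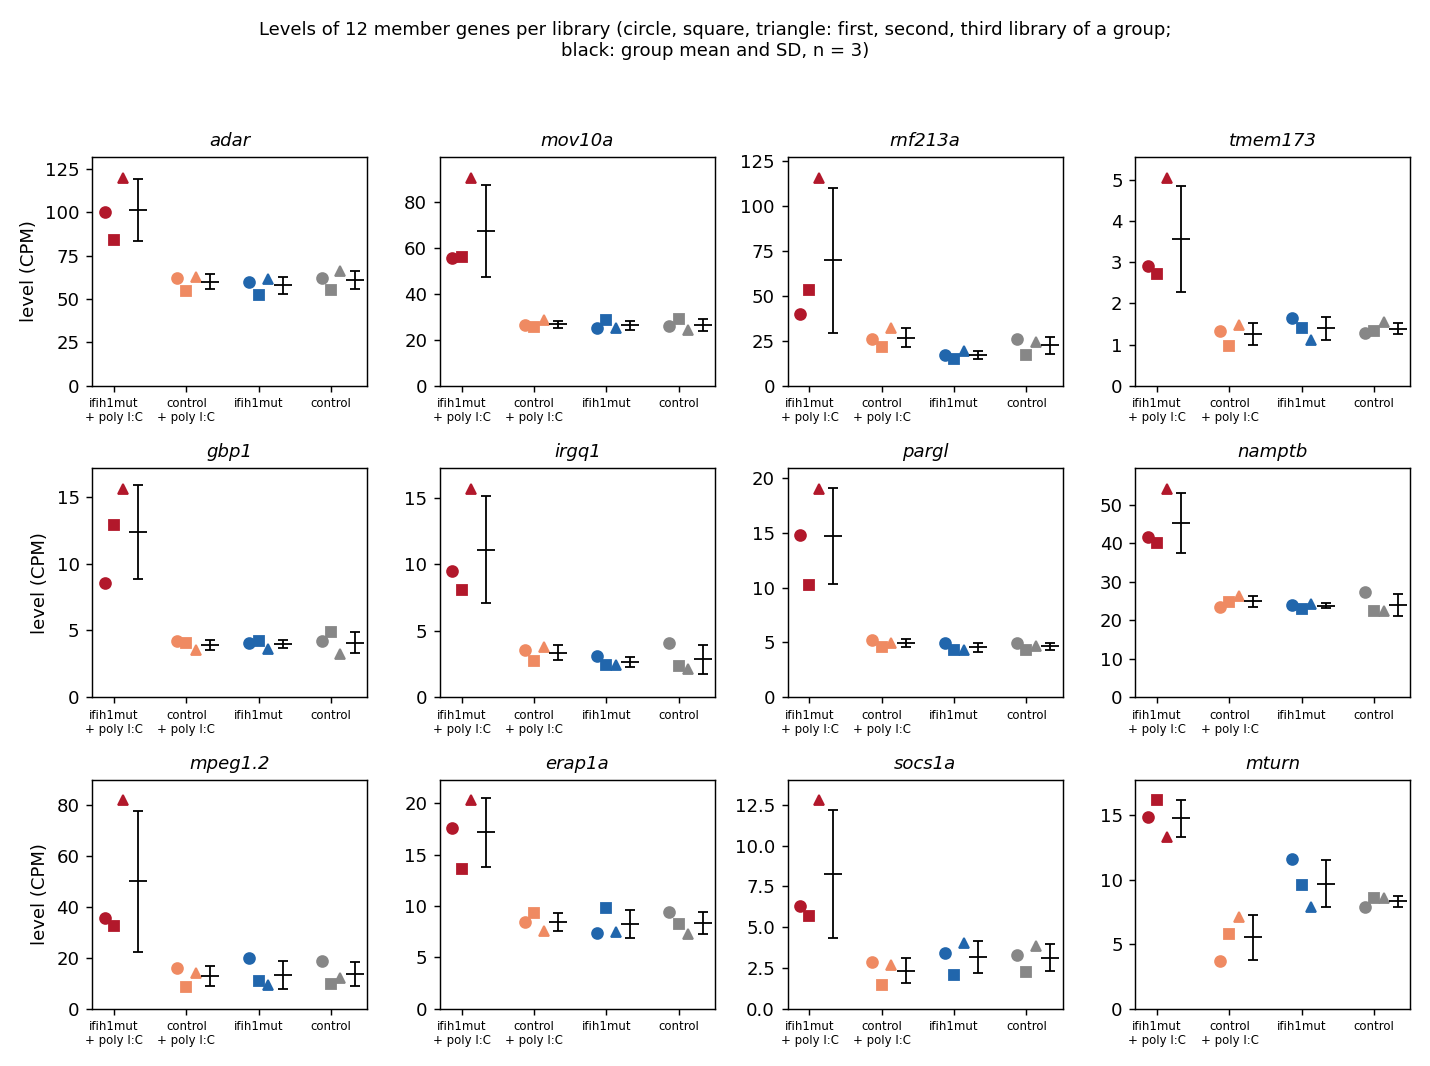
CPM in each of the 12 libraries for 12 members (circle, square and triangle follow the order of the library numbers in a group, and the black mark is the group mean with its SD, n = 3). In the panels of adar, mov10a, rnf213a, tmem173, gbp1, irgq1, pargl, namptb, mpeg1.2, erap1a and socs1a the A74 triangle is the highest point, and in mturn it is the lowest of the 3 stimulated ifih1mut points.

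The large GTPases of immunity supplied 4 members. gbp1 had 8.57, 12.9 and 15.6 CPM in stimulated ifih1mut pools, 4.19, 4.08 and 3.49 CPM in stimulated controls, 4.03, 4.21 and 3.63 CPM in unstimulated ifih1mut pools and 4.17, 4.85 and 3.23 CPM in unstimulated controls. Guanylate-binding proteins such as Gbp1 are GTPases that assemble on intracellular microbes and their vacuoles in mammals. The groups outside stimulated ifih1mut were almost level, A72 was the lowest of the 3 stimulated pools, and the ratio was 3.098 (2.69 without A74). gbp2 had 5.42, 7.39 and 8.19 CPM in stimulated ifih1mut pools, against 2.196 to 5.12 CPM in the other 9 libraries. Its gap to A76, the highest of the other pools, was small. The relatives gbp3 and gbp4 had ratios of 0.861 and 1.00 with overlapping groups.

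irgq1 had 9.50, 8.08 and 15.7 CPM in stimulated ifih1mut pools, 3.57, 2.69 and 3.77 CPM in stimulated controls, 3.07, 2.44 and 2.43 CPM in unstimulated ifih1mut pools and 4.07, 2.34 and 2.102 CPM in unstimulated controls. The gene irgq1 encodes an immunity-related GTPase, and its ratio of 3.77 (2.99 without A74) was next after those of LGALS3BP (1 of many) and mpeg1.2. Its relative irgq2 had a ratio of 0.981, and its chromosomal neighbour irge4 one of 37.3. mxc had 6.80, 8.83 and 13.5 CPM in stimulated ifih1mut pools, against 1.51 to 5.51 CPM in the other 9 libraries. The Mx proteins are dynamin-like GTPases that block viral replication. For mxc, the ratio was 2.90, and A80, a stimulated control, held the highest of the other 9 values. Its relatives mxa, mxb and mxe had ratios of 115, 146 and 139, and mxf, at 1.75, overlapped between groups.

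Genes of ADP-ribose and NAD turnover formed a group of 4, with ratios of 1.62 to 3.13. pargl had 14.9, 10.3 and 19.03 CPM in stimulated ifih1mut pools, 5.27, 4.60 and 4.94 CPM in stimulated controls, 4.99, 4.33 and 4.32 CPM in unstimulated ifih1mut pools and 4.98, 4.33 and 4.64 CPM in unstimulated controls. The name of pargl marks it as a relative of the glycohydrolase that removes ADP-ribose chains from proteins. Its groups outside stimulated ifih1mut lay between 4.32 and 5.27 CPM, and its ratio was 3.13 (2.67 without A74). The relative parga had a ratio of 1.16, also with no overlap. CABZ01079480.1 had 16.5, 12.01 and 23.8 CPM in stimulated ifih1mut pools, against 6.66 to 10.7 CPM in the other 9 libraries. Its current name, parp14rs3, relates it to the enzymes that attach ADP-ribose. namptb had 41.7, 40.0 and 54.1 CPM in stimulated ifih1mut pools, 23.6, 24.8 and 26.3 CPM in stimulated controls, 24.1, 23.0 and 24.1 CPM in unstimulated ifih1mut pools and 27.3, 22.4 and 22.4 CPM in unstimulated controls. Nampt is the rate-limiting enzyme of NAD salvage from nicotinamide, and namptb had a ratio of 1.87 (1.69 without A74). The paralog nampta, at a ratio of 1.37, also had every stimulated ifih1mut library above the rest but lay under the limit of 1.5. The fourth, adprm, encodes a hydrolase of ADP-ribose and had 5.88, 6.80 and 8.38 CPM in stimulated ifih1mut pools.

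Enzymes that trim peptides or act in lysosomes supplied 6 members, each with its highest value in A74. The aminopeptidases of the endoplasmic reticulum shorten peptides to the length that fits MHC class I, and all 3 of their genes were members. erap1a had 17.6, 13.6 and 20.3 CPM in stimulated ifih1mut pools, 8.40, 9.35 and 7.53 CPM in stimulated controls, 7.39, 9.85 and 7.46 CPM in unstimulated ifih1mut pools and 9.41, 8.26 and 7.31 CPM in unstimulated controls. The ratio of erap1a was 2.06 (1.87 without A74). erap1b had 6.07, 6.53 and 10.3 CPM in stimulated ifih1mut pools, against 2.12 to 4.87 CPM in the other 9 libraries. erap2 had 5.99, 6.26 and 7.28 CPM in stimulated ifih1mut pools, against 2.71 to 4.24 CPM in the other 9 libraries. The lowest of the other pools was A75 for erap1b and A76 for erap2, both ifih1mut, so the ranges outside stimulated ifih1mut were wider than for adar. Among cathepsins, ctsc, whose product activates the serine proteases of immune granules, had 39.3, 37.9 and 51.1 CPM in stimulated ifih1mut pools and 23.5 to 30.5 CPM in the other 9. Members ctss2.2 and ctsh had ratios of 2.22 and 1.59. The similarly named ctss2.1 had a ratio of 2.05 but overlapped between groups, and of 10 further cathepsin genes examined, ctsz alone was without overlap, at a ratio of 1.201.

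A group named after phagocyte, lectin and leukocyte surface genes held 12 members with ratios of 1.60 to 3.80. The cells that express them were not tested. mpeg1.2 had 35.6, 32.5 and 81.6 CPM in stimulated ifih1mut pools, 16.1, 8.59 and 14.04 CPM in stimulated controls, 19.7, 10.8 and 9.45 CPM in unstimulated ifih1mut pools and 18.6, 9.49 and 12.11 CPM in unstimulated controls. The gene mpeg1.2 encodes a perforin-like protein of macrophages, and its ratio was 3.78 (2.58 without A74). A72 and A73 were close together and A74 was far above both, while A75 and A81 led the other 9. Its relative mpeg1.1, a widely used macrophage marker, had a ratio of 1.53 with overlapping groups. LGALS3BP (1 of many) had 2.99, 4.61 and 7.39 CPM in stimulated ifih1mut pools, against 0.743 to 1.91 CPM in the other 9 libraries. This entry belongs to the family of scavenger-receptor-domain proteins that bind galectin-3, and its ratio was the highest of all members at 3.80 (2.89 without A74). grna had 7.76, 7.13 and 13.5 CPM in stimulated ifih1mut pools, against 2.87 to 4.59 CPM in the other 9 libraries. It encodes a progranulin, a growth factor precursor that acts in lysosomes, and the relative grnb had a ratio of 0.989.

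The galectin gene lgals9l1 had 5.85, 5.09 and 6.91 CPM in stimulated ifih1mut pools, against 1.93 to 4.55 CPM elsewhere, and the lysozyme gene lygl1 had 9.58, 9.22 and 14.1 CPM, against 5.19 to 8.01 CPM. Both gaps were small next to the fold of the means. Of the 9 ms4a17a genes examined, which encode membrane-spanning proteins, 4 were members. The ratios of ms4a17a.1, ms4a17a.5, ms4a17a.10 and ms4a17a.12 were 2.65, 1.60, 2.36 and 3.27. The ratios of ms4a17a.7, ms4a17a.8, ms4a17a.9 and ms4a17a.11 were 0.971 to 1.08, and ms4a17a.2 had 3.03 with overlap. The 4 ms4a17a members lay on chromosome 4 between 76659013 and 76785895 in the deposited coordinates, whose build is not stated. serpinb1l1 had 2.80, 1.59 and 4.12 CPM in stimulated ifih1mut pools, against 0.241 to 1.37 CPM in the other 9 libraries. It encodes a serpin, a protease inhibitor, and serpinb1, serpinb1l2, serpinb1l3 and serpinb1l4 had ratios of 0.804 to 1.04. The entry adgrg1 carries the name of an adhesion receptor but a tyrosine kinase domain label (Pkinase_Tyr) in the authors' deposited table, so its role is uncertain. It had 4.52, 5.12 and 9.31 CPM in stimulated ifih1mut pools, and ponzr1 had 24.7, 15.99 and 31.98 CPM with A73 barely above A75.

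Markers of macrophages are given beside these members. The 6 defining macrophage markers (spi1b, c1qa, mpeg1.1, marco, mfap4 and csf1ra) summed to 40.0 to 46.1 CPM in stimulated ifih1mut pools, 27.9 to 40.2 CPM in stimulated controls, 26.5 to 36.0 CPM in unstimulated ifih1mut pools and 26.4 to 34.9 CPM in controls. All 6 were found, and c1qa alone was at 0 in any library. The largest difference of a single marker in CPM was in the scavenger receptor marco. It had 15.2, 6.98 and 12.7 CPM in stimulated ifih1mut pools and 7.94, 2.48 and 5.15 CPM in stimulated controls. For csf1ra these were 24.3, 22.8 and 21.2 CPM and 24.6, 18.4 and 20.3 CPM. The fold was larger for c1qa, at means of 0.267 and 0.0618 CPM in the same groups, a level near 0. The means of spi1b, 3.48 and 3.60 CPM, went the other way. The neutrophil markers were mpx, lyz, nccrp1 and both entries named mmp13a. The higher mmp13a entry had 35.8 CPM in A73 and 39.6 CPM in A81, against 4.75 to 20.4 CPM in the other libraries. The neutrophil markers summed to 57.1 to 90.4 CPM in stimulated ifih1mut pools (highest in A73) and 45.3 to 69.1 CPM in stimulated controls. They summed to 45.2 to 61.9 CPM in unstimulated ifih1mut pools and 49.9 to 87.1 CPM in controls (highest in A81). Their part in the phagocyte and cathepsin members was not tested.

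Signalling, autophagy and cell death genes supplied 8 members. socs1a had 6.31, 5.66 and 12.8 CPM in stimulated ifih1mut pools, 2.85, 1.45 and 2.65 CPM in stimulated controls, 3.42, 2.06 and 4.02 CPM in unstimulated ifih1mut pools and 3.26, 2.27 and 3.86 CPM in unstimulated controls. Socs1 proteins are feedback inhibitors of the Jak kinases, and socs1a had a ratio of 2.87 (2.08 without A74). cd40 had 5.31, 5.39 and 8.91 CPM in stimulated ifih1mut pools, against 2.34 to 3.65 CPM in the other 9 libraries. Cd40 is the receptor by which antigen-presenting cells receive T cell help. relb had 2.78, 1.89 and 2.36 CPM in stimulated ifih1mut pools, against 0.408 to 1.51 CPM in the other 9 libraries. RelB is the transcription factor of the alternative NF-kB pathway, and the relatives rela, rel, nfkb1 and nfkb2 had ratios of 0.905 to 1.103. At this level, relb varied among the other 9 pools from 0.408 to 1.51 CPM, and A72 rather than A74 was its highest value.

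The autophagy receptor gene calcoco2 had 9.20, 8.68 and 10.4 CPM in stimulated ifih1mut pools and 3.61 to 6.15 CPM in the other 9, with relatives calcoco1a and calcoco1b at ratios of 0.975 and 1.11. The phosphatase gene dusp22b had 6.34, 5.48 and 8.91 CPM and a ratio of 1.75. CABZ01020840.1, described in the authors' deposited table as an apoptosis facilitator of the Bcl-2 family, had 3.103, 3.08 and 4.90 CPM and a ratio of 2.09. CABZ01074397.1, currently named nlrp3l2 after an inflammasome sensor, had 10.6, 7.60 and 14.5 CPM and a ratio of 2.25. BX927130.3 had 2.07, 1.53 and 3.35 CPM in stimulated ifih1mut pools, against 0.484 to 0.784 CPM in the other 9 libraries. It is listed as an unprocessed pseudogene with a NACHT domain label in the authors' deposited table, and its ratio was 3.72.

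The remaining named members, 18 in all, handle metals, transport or metabolism or have other duties, and had the lowest median ratio of the 8 role groups, 1.77. scrn3 had 22.9, 19.3 and 31.6 CPM in stimulated ifih1mut pools, against 7.47 to 11.2 CPM in the other 9 libraries. Its ratio of 2.56 and its gap of 1.73 between the lowest stimulated ifih1mut value and the highest other value were wide for this group. steap3 had 2.69, 1.80 and 6.13 CPM in stimulated ifih1mut pools, against 0.957 to 1.67 CPM in the other 9 libraries. Steap3 reduces ferric iron in endosomes, and its ratio of 2.79 was 1.77 without A74. The ferroxidase relative hephl1a, the copper chaperone sco1 of cytochrome c oxidase and the zinc transporter slc39a3 had ratios of 1.91, 1.92 and 1.57. The bile acid transporter slc10a1, at 6.12, 7.30 and 8.06 CPM in stimulated ifih1mut pools, had the lowest ratio of all members, 1.51. The liver transcripts tfa, for transferrin, and fabp10a, for a fatty acid binding protein, had ratios of 0.823 and 0.723 with overlapping groups. The cytochrome gene cyp2aa7, the glucuronosyltransferase ugt5f1, the peroxisomal membrane protein pxmp2, hdhd5, wrnip1 and tor1l2 had ratios of 1.64 to 2.60.

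The last 8 members had a clone name and were assigned no role here, though some carry a domain label. FP102192.1 had 4.79, 4.49 and 6.61 CPM in stimulated ifih1mut pools, 1.80, 1.72 and 1.63 CPM in stimulated controls, 1.33, 1.94 and 1.26 CPM in unstimulated ifih1mut pools and 1.497, 1.57 and 1.07 CPM in unstimulated controls. FP102192.1 had the widest gap of all members, with a lowest stimulated ifih1mut value 2.31 times the highest other value, and a ratio of 3.45. BX005421.1, a long intergenic RNA, followed with a gap of 2.04 at 1.12, 1.08 and 1.45 CPM in stimulated ifih1mut pools. LO018205.2 and CABZ01021435.1 carry SPRY domain labels, and CU469531.1, a pseudogene, a B-box label in the authors' deposited table. Their ratios were 3.60, 2.49 and 3.15. The other 3, BX664618.1, CR388143.1 and FP236812.4, averaged 1.17 to 1.47 CPM in stimulated ifih1mut pools. Of these, FP236812.4 carries a histone domain label.

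The median gap over members was 1.25, and further wide gaps were those of irgq1 at 1.99, BX927130.3 and pargl at 1.95, mov10a at 1.92, ms4a17a.10 at 1.80 and gbp1 at 1.77. At the other end, values near the limits show how narrow the choice was. The lowest ratios inside were 1.51 for slc10a1, 1.52 for FP236812.4 and 1.56 for ctsc, and the highest outside were 1.49 for fbxo7, 1.49 for il13ra1 and 1.48 for rnf114. At the upper limit, LGALS3BP (1 of many), mpeg1.2 and irgq1 had 3.80, 3.78 and 3.77, and ifih1, FP102192.2 and lgals9l3 lay outside at 4.15, 4.26 and 4.34. The lowest means inside were 1.02 CPM for LO018205.2, 1.17 CPM for FP236812.4 and 1.21 CPM for BX005421.1, against 0.920, 0.889 and 0.847 CPM for BX005421.3, CU896691.3 and c1s outside. For overlap, the gaps of ponzr1, rnasel3 and slc16a9a were 1.00, 1.01 and 1.03 inside, and those of cbx7a, AL645691.2 and cluhb were 0.999, 0.987 and 0.975 outside.

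Levels of different genes can be set side by side per length, as RPKM (CPM divided by the gene length of the deposited tables in kilobases). The highest mean levels in stimulated ifih1mut pools were 22.4 RPKM for namptb, 22.2 RPKM for mturn, 19.6 RPKM for mov10a, 18.9 RPKM for mpeg1.2 and 18.7 RPKM for adar. In stimulated controls these means were 12.3, 8.32, 7.77, 4.89 and 11.06 RPKM. Over all members the median level was 3.45 RPKM in stimulated ifih1mut pools and 1.53 RPKM in stimulated controls.

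Several members have a paralog among the strongly raised genes, named here after their values were seen. The member rnf213a averaged 4.31 ± 2.498 RPKM in stimulated ifih1mut pools, against 1.65 ± 0.325 RPKM in stimulated controls (SD, n = 3 each). Its paralog rnf213b averaged 1.72 ± 0.926 RPKM in stimulated ifih1mut pools, against 0.0530 ± 0.0357 RPKM in stimulated controls. The paralog with the far larger ratio thus had the lower level in both groups. The same order held for the mov10 genes, where mov10a averaged 19.6 ± 5.82 RPKM in stimulated ifih1mut pools, against 7.77 ± 0.457 RPKM in stimulated controls. There mov10b.1 averaged 0.646 ± 0.278 RPKM in stimulated ifih1mut pools, against 0.121 ± 0.0987 RPKM in stimulated controls. It did not hold for the irg and galectin pairs. The strongly raised irge4 averaged 6.88 ± 2.46 RPKM in stimulated ifih1mut pools, against 0.267 ± 0.0216 RPKM in stimulated controls. Its neighbour irgq1, at 2.05 ± 0.745 RPKM in stimulated ifih1mut pools, against 0.618 ± 0.106 RPKM in stimulated controls, was the lower of the pair in stimulated ifih1mut pools and the higher in stimulated controls. For lgals9l3 both levels, 23.8 ± 7.96 RPKM in stimulated ifih1mut pools, against 5.65 ± 0.0874 RPKM in stimulated controls, exceeded those of lgals9l1, at 2.70 ± 0.414 RPKM in stimulated ifih1mut pools, against 1.53 ± 0.390 RPKM in stimulated controls. How reads shared between near-identical copies were assigned is not stated, so the split within the ms4a17a, mpeg1, gbp, irg and galectin genes is uncertain.

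Some members lie beside a strongly raised gene. Of the 67, 7 (10.4%) lay within 10 kb of a gene over 4 times higher, of any name, against 91 of 16076 other eligible genes (0.566%). The distances were 36 bp from BX005421.1 to BX005421.2, 420 bp from grna to ifi35, 811 bp from ugt5f1 to an unnamed gene, 1116 bp from cyp2aa7 to another, 2490 bp from pxmp2 to isg15, 4020 bp from LGALS3BP (1 of many) to lgals3bpb and 7067 bp from irgq1 to irge4. None of the 7 overlapped its neighbour. The pair pxmp2 and isg15 lies on chromosome 5, with pxmp2 at 20115774 to 20123002 on the minus strand and isg15 at 20112032 to 20113284 on the plus strand. The member pxmp2 had 7.73, 10.7 and 9.13 CPM in A72, A73 and A74, and A73 was its highest library but the lowest for isg15. For grna, at 7.76, 7.13 and 13.5 CPM, A74 was highest. A74 was also highest for BX005421.1, ugt5f1, cyp2aa7, LGALS3BP (1 of many) and irgq1, so pxmp2 was the exception among the 7. Whether members follow their neighbours was not tested. Tandem relatives lay slightly farther apart, at 11017 bp for lgals9l1 and lgals9l3 and 11462 bp for mxc and mxe. The strand setting of the counting is not stated. Without it, reads of pargl and ponzr1 cannot be told apart from those of ogdhb and zgc:194312, which overlap them on the opposite strand. Those 2 overlapping genes had ratios of 0.970 and 1.02. On the same strand, cyp2aa7 overlaps cyp2aa8, at a ratio of 0.71, and calcoco2 overlaps stx4, at 0.95. A strand setting would not tell reads of such same-strand overlaps apart.

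The third library stood out in stimulated ifih1mut pools for most members. A74 was the highest of the 3 in 53 of 67 members, A73 in 9 and A72 in 5. Among the 16076 other eligible genes A74 was highest in 22.9%, and among the 82 strongly raised genes in 76. The median ratio of A74 to the mean of A72 and A73 was 1.45 over members, 2.27 over strongly raised genes and 0.924 over other genes. The same ratio of the third library to the first 2 had a member median of 1.06 in stimulated controls, 0.890 in ifih1mut pools and 0.904 in controls. A74 was over 1.5 times the mean of A72 and A73 in 32 members, in 73 of the 82 strongly raised genes and in 2.79% of other genes. By size, A74 was highest in 19 of 31 members with a ratio under 2, in 12 of 13 from 2 to 2.5, in 10 of 10 from 2.5 to 3 and in 12 of 13 above 3. A74 enters the ratio itself, so members with a higher A74 have higher ratios by construction. A74 held 37361779 counts, close to A72 at 36743869, and the cause of its higher values was not tested.

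**Figure D4:**
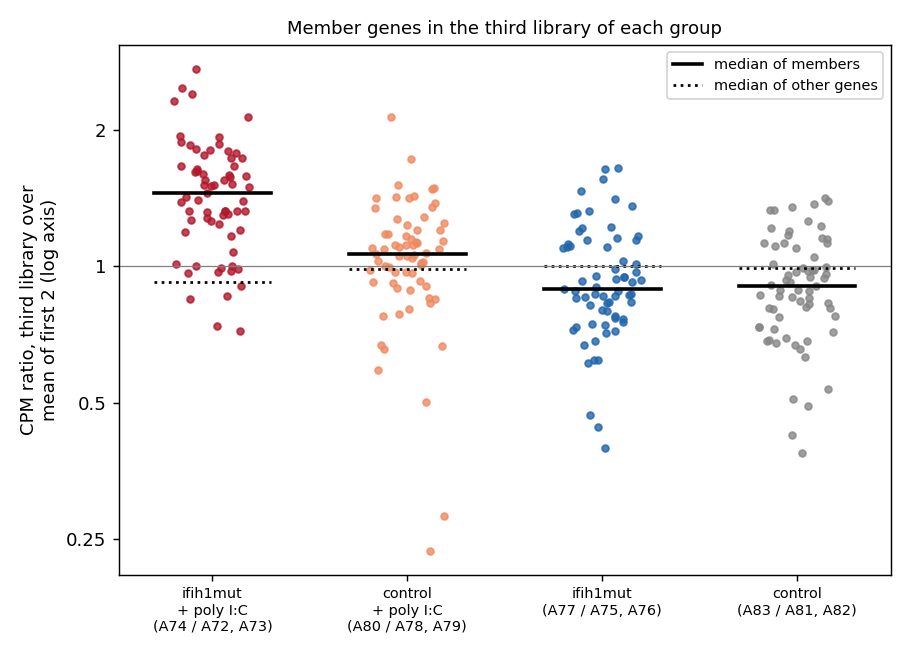
Each point is a member gene, with its CPM in the third library of a group divided by the mean of the first 2, on a log axis, for the 4 groups. The member median (solid line) is 1.45 in stimulated ifih1mut pools, against 1.06, 0.890 and 0.904 in stimulated controls, ifih1mut pools and controls, and the dotted lines give the medians of other genes.

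The 14 members whose highest value was not in A74 were a mixed set. mturn had 14.8, 16.1 and 13.3 CPM in stimulated ifih1mut pools, 3.66, 5.78 and 7.14 CPM in stimulated controls, 11.59, 9.60 and 7.90 CPM in unstimulated ifih1mut pools and 7.84, 8.58 and 8.60 CPM in unstimulated controls. The gene mturn is known from frogs as a regulator of neural differentiation, and here A73 was highest and A74 lowest of the stimulated ifih1mut pools. snx6 had 9.50, 10.5 and 9.05 CPM in stimulated ifih1mut pools, 4.06, 4.08 and 6.06 CPM in stimulated controls, 6.17, 6.73 and 4.93 CPM in unstimulated ifih1mut pools and 6.82, 7.21 and 5.68 CPM in unstimulated controls. Snx6 is a sorting nexin of the retromer that returns receptors from endosomes. For both genes the ratio was larger without A74, at 1.97 and 1.74, than with it, at 1.88 and 1.68. The others included adpgk2, sco1, slc16a9a, pxmp2 and slc39a3, with metabolic or transport roles, and the membrane-spanning protein genes ms4a17a.5 and ms4a17a.12. They also included relb, rnasel3, LO017790.1 and FP236812.4. Their ratios lay between 1.52 and 3.27.

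Comparisons among the 9 other libraries are given next. The choice used their highest value and their mean, which works against genes raised in any of these groups, so the values below are a description and not independent of it. All 67 members were among the 26508 genes that entered the edgeR quasi-likelihood test. For ifih1mut against control, 0 members passed a Benjamini-Hochberg adjusted p of 0.05, and of all genes 1 did (0.00377%), ifih1 itself. None of the members reached an unadjusted p of 0.05 in that comparison, against 135 of all genes (0.509%), and the Wald test of DESeq2 called 2 genes and 0 members. That edgeR fit leaves out the shared deviations of library sets. With library sets as a block, 0 members reached an unadjusted p of 0.05, against 350 of 26508 genes. A count of 0 does not show that the genotypes were equal. The members' log2 fold changes of ifih1mut over control had a median of 0.04, from -0.46 for ms4a17a.1 to 0.49 for LO018205.2, with a median SE of 0.25 and 43 of 67 above 0. The median over all genes was 0.0033.

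For stimulated control against control, 0 of 67 members and 0 of 26508 genes (0.0%) passed, and DESeq2 also called 0. The members' log2 fold changes had a median of 0.02, from -0.59 for mturn to 0.72 for CABZ01021435.1, with 40 above 0. The median over all genes was -0.0043. At an unadjusted p of 0.05, 3 members passed in edgeR, against 367 of all genes (1.38%). These were mturn, at a log2 fold change of -0.59 (SE 0.22), snx6 at -0.47 (SE 0.19) and CABZ01021435.1 at 0.72 (SE 0.30). With library sets as a block, 6 members passed at that level, against 1054 of all genes (3.98%). Lower in stimulated controls were mturn at -0.60, snx6 at -0.47, slc39a3 at -0.45 and LO017790.1 at -0.33. Higher were CABZ01021435.1 at 0.70 and rnasel3 at 0.42. For mturn every stimulated control pool lay below every control pool, and for snx6 the groups overlapped. CABZ01021435.1 had 0.806, 0.968 and 0.904 CPM in stimulated controls, all above its 0.506, 0.580 and 0.533 CPM in controls.

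Groups that did not overlap were counted as well. Every stimulated control pool lay above every control pool for 3 members (FP102192.1, CABZ01021435.1 and cyp2aa7), against 1.64% of eligible genes, and below for 2 (mturn and CABZ01079480.1), against 2.08%. For ifih1mut against control 1 member lay above (cyp2aa7), against 1.14%, and 1 below (ms4a17a.1), against 1.87%. The cytochrome gene cyp2aa7 is the member in both counts. It had 9.18, 9.47 and 8.25 CPM in stimulated controls, 8.58, 9.04 and 8.37 CPM in unstimulated ifih1mut pools and 7.91, 8.13 and 6.53 CPM in controls. By choice these lay under its 14.5, 12.7 and 25.2 CPM in stimulated ifih1mut pools, with a gap of 1.34. The highest of the other 9 libraries was a stimulated control for 20 members, an ifih1mut pool for 28 and a control for 19. Among other genes these shares were 32.6%, 30.4% and 37.0%.

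**Figure D5:**
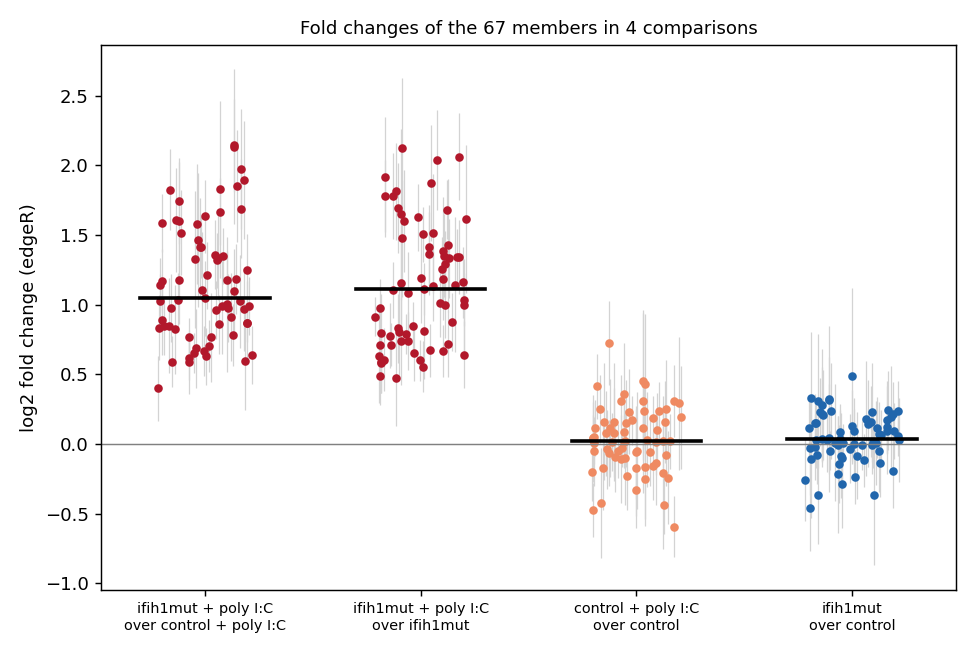
Log2 fold changes of the 67 members from edgeR with their standard errors (grey bars) in 4 comparisons, and the median of each as a black line. The medians are 1.05 and 1.11 in the 2 comparisons with stimulated ifih1mut pools, which the choice of members fixed above 0, and 0.02 and 0.04 in the 2 comparisons among the other 9 libraries, whose highest value and mean the choice also used.

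In the comparisons with stimulated ifih1mut pools, which share those pools and whose direction the choice fixed, calls are a description. For stimulated ifih1mut against stimulated control, 16 of 67 members passed the adjusted p of 0.05 in edgeR (26 with library sets as a block, where 0.883% of all genes passed in either direction), and 156 of all genes were called higher (0.589%). The members' log2 fold changes ran from 0.40 for rnasel3 to 2.14 for BX927130.3, with a median of 1.05. Among the 16 were pargl at 1.59 (SE 0.21), mov10a at 1.35 (SE 0.20), mturn at 1.41 (SE 0.22) and adar at 0.77 (SE 0.14), while tmem173 at 1.52 (SE 0.31) and rnf213a at 1.41 (SE 0.35) passed with the block and not without it. For stimulated ifih1mut against ifih1mut, 17 members passed (28 with the block, where 1.04% of all genes passed), and 181 genes were called higher (0.683%). There the range was 0.47 for FP236812.4 to 2.13 for ms4a17a.12, with a median of 1.11. Here rnf213a passed at 2.04 (SE 0.36), and mturn at 0.58 (SE 0.21) did not. The counts changed when single libraries were left out, also libraries outside the comparison, and the reason was not tested. The first was 1 when A79 was left out, 3 when A78 was, 4 when A80 was and 9 when A74 was. The second was 2 when A77 was left out, 5 when A75 was, 7 when A76 was, 9 when A74 was, 10 when A80 was and 11 when A79 was.

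Of the 67 members, 20 (29.9%) were in at least 1 of 17 gene lists of this response and 47 in none. The lists were drawn up with earlier results known, and held 508 of the 26508 genes tested (1.92%). The genes tested include unnamed genes and names with a colon, which the choice of members left out. Both shares are thus over unlike sets of genes. For stimulated ifih1mut against stimulated control, 19 of 24 canonical interferon-stimulated genes tested were called higher and 0 lower, with a list median log2 fold change of 5.55, and mxc was the member on it. Of 15 guanylate-binding and large GTPases 3 were higher (gbp1, irgq1 and irge4), with a median of 0.72. Of 51 macrophage and microglia markers 2 were higher, lgals3bpa and lgals3bpb, neither of them a member, and the list median was 0.24. That list held 6 members, ctsc, ctss2.2, grna, lgals9l1, lygl1 and mpeg1.2, of which 0 were called (ctsc, ctss2.2 and mpeg1.2 with the block, where the list had 5 genes higher). Of 22 genes of antigen processing in the endoplasmic reticulum 1 was higher, erap1a (2 with the block, which added b2m), with a list median of 0.02. The median over all genes in this comparison was -0.0046.

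The lists for ADP-ribosylation (18 tested), ubiquitin and ISG15 conjugation (29) and galectins and lectins (19) each had 3 genes higher, with the member CABZ01079480.1 in the first, and that for nucleotide and nucleic acid metabolism (34) had 2, adar and cmpk2. The translation list (32) had 1. Without the block no gene was called in the lists for nucleic acid sensing (26), cell death and inflammasome (51), NF-kB and cytokine signalling (65), chemokines (27), neutrophils (18), lymphocytes (14), lysosome (50) and complement (37), although relb, socs1a, tmem173, lgals9l1, ctsc, ctsh and ctss2.2 are members in them. With the block, tmem173 was called among the sensing genes, socs1a among the NF-kB and cytokine genes, ctsc and ctss2.2 in the lysosome list and 1 complement gene as lower. No gene of any of the 17 lists was called lower without the block. In stimulated control against control 0 genes of any list were called in either direction, and the interferon-stimulated list had a median log2 fold change of 0.52.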

How the data were processed

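The submitters deposited their results as 3 tables, each comparing groups over 6 libraries. Per the file headers, the authors gave raw whole-number counts by gene and library, and the gene length in bases. The aligner, counting program, annotation, genome build and strand setting are not stated. Joining on the identifier gave 32349 genes. Among 187002 counts found in several tables, 0 differed, and 6372 values absent for 1484 genes were taken as 0. The 42 columns with normalised values of libraries or group means were not used, nor were the authors' fold changes and p-values. Column names hold the group and a library number, not the replicate number given in the titles.

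CPM is the count divided by the library total, times 1000000, and RPKM is CPM per kilobase of gene length. Counts were tested with edgeR 4.0.16 (R 4.3.3) by its quasi-likelihood F-test, with TMM, filterByExpr at a minimum count of 10 and minimum total of 15, 1 coefficient per group, all 12 libraries and Benjamini-Hochberg adjustment over 26508 genes. The fit without a block was run on simulated counts drawn independently for each library. These had no shared deviations of library sets, so the simulation says nothing about their effect. Alternatives were the Wald test of DESeq2 1.42.0, RLE scaling, other filters, only the 2 groups compared, each library left out, and a block for the position of a library number in its group. Over 22542 genes, deviations from the group means correlated at 0.279 to 0.794 in the 18 same-position pairs and at most 0.166 in the 36 others. The pairing comes from these correlations and not from the labels.

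The members and the 17 gene lists (579 of 696 symbols matched) were chosen with earlier results of these data known. Genes were named by a rule: ifih1, the 12 members with the highest ratio, the 12 with the highest level, the 10 with the widest gap, up to 4 of each list, the 3 nearest either side of each limit, members called among the other 9 libraries, and members within 10 kb of a gene over 4 times higher, with isg15 and stat1b. Paralogs, role groups and other members were named after their values were seen. Reference names covered 60 of 67 members. Promoter motifs were not analysed here, and 2 members are counted but not reported singly.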

Additional observations from a re-analysis of the deposited data

Results flagged for a closer look

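For 2 members, mturn and CABZ01079480.1, every stimulated control pool lay below every control pool, against 2.08% of eligible genes. In transgenic larvae every stimulated pool lay above every unstimulated pool, which the choice of members required. The gene mturn had a log2 fold change of -0.59 for stimulated control against control and 0.58 for stimulated ifih1mut against ifih1mut. CABZ01079480.1, currently named parp14rs3, had -0.23 for stimulated control against control, with 6.85, 6.66 and 7.11 CPM in stimulated controls and 7.37, 8.22 and 8.63 CPM in controls. The member ms4a17a.1 had every ifih1mut pool below every control pool, at a log2 fold change of -0.46. Of eligible genes, 1.87% had that order. By choice, every stimulated ifih1mut pool of ms4a17a.1 lay above every stimulated control pool. None of the 3 differences between effects was tested, since the choice of members fixed the direction in stimulated ifih1mut pools, and none of the 3 negative values passed an adjusted p of 0.05 in edgeR.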

How the results depend on the processing

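The count of 67 members depends on the limits. It was 36 at 2 to 4 times, and 183 with no condition on overlap. Leaving out 1 library gave 66 to 124 members: 109 without A72 (62 of them among the 67), 102 without A73 (61) and 124 without A74 (56). With a stimulated ifih1mut library left out, fewer values have to lie above the other groups, so higher counts follow in part from the rule. TMM scaling gave 67 members, 64 of them the same genes, and RLE scaling 66, with 63 the same.

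For ifih1mut against control, 1 gene was called in edgeR, 2 in DESeq2 and 0 with only the 2 groups compared. Leaving out 1 library gave 0 to 1, with 0 without A76, A81, A82 or A83. Members called were 0 in that comparison and in stimulated control against control under every alternative run, which the choice of members favours. For stimulated ifih1mut against stimulated control, the 159 genes called in either direction became 272 in DESeq2, 69 with only these groups and 70 to 177 with 1 library left out. The 16 members became 39 in DESeq2, 0 with only these groups and 1 to 17 with 1 library left out. For stimulated ifih1mut against ifih1mut, the 183 genes became 307 in DESeq2, 99 with only these groups and 92 to 201 with 1 library left out. The 17 members became 40, 2 and 2 to 19 in the same settings. With library sets as a block, the first comparison gave 26 members, and the second gave 277 genes and 28 members. The block also changed calls within gene lists for stimulated ifih1mut against stimulated control, adding socs1a, tmem173, ctsc, ctss2.2, mpeg1.2 and rnf213a among members on them. The block took the biological coefficient of variation to 0.151, against 0.263 without it.

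Of 2550 values of single members, references and medians under alternatives, 2460 stayed within 1 SD and 90 moved by more. Of these 90, 70 moved when A74 was left out, and why the values moved was not tested. The count of reversed values was 0. The choice of members fixed their direction in the comparisons with stimulated ifih1mut pools, so for those values this count is no test. Whether medians near 0 kept their sign is not shown by these counts. The description of promoter motifs was not run. Members near 1 CPM rest on few reads, so their ratios are the least certain.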
